A study of Mus musculus with 6 samples.

Results

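The nuclear genes for respiratory chain complexes I to IV were followed in the basolateral amygdala of male mice under chronic restraint stress (CRS) and of Ctrl mice that were not stressed. The members are 40 gene symbols fixed by name, out of 26264 symbols in the files: 20 of complex I, 4 of complex II, 7 of complex III and 9 of complex IV. The 2 groups hold 3 libraries each, described as biological replicates, made from total RNA of dissected tissue after ribosomal RNA depletion. The labels state neither strain nor age nor the length of the restraint, and sex and tissue are all they name as shared by both groups. The values are raw read counts per gene, given here as CPM, which are counts relative to the library's total in genes, scaled by trimmed mean of M values (TMM) factors. All 40 members were tested, 39 of them with a mean count of at least 100.

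The respiratory chain sits in the inner mitochondrial membrane and passes electrons from NADH and succinate to oxygen, pumping protons that drive ATP synthase. Most of its subunits come from nuclear genes, are made in the cytosol and are imported, while a few core subunits come from mitochondrial DNA. Neurons depend on this pathway to pay for ion pumping and synaptic transmission. The transcription factors NRF1, GABP (a member of the ETS family) and YY1 are known to act on many of the nuclear genes.

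The cores of NRF1, ETS and YY1 motifs were looked for in the members' promoters. RefSeq promoter windows of build GRCm38.p6, which run from 250 bases before to 50 bases after a start site, matched 30 of the 40 members by symbol. The members without a window were Ndufa2, Ndufb9, Ndufs1, Sdhc, Uqcrc2, Uqcrb, Uqcrq, Cyc1, Cox4i1 and Cox6c. On either strand, the NRF1 core GCGCATGC occurred in 5 of 32 member windows (15.6%), against 2.71% of all 32851 windows and 4.77% of the 14726 windows of tested genes. The ETS core CCGGAAG occurred in 8 member windows (25%), against 8.86% of all windows and 15.5% of those of tested genes. The YY1 core AAGATGGC occurred in 3 member windows (9.38%), against 2.75% and 3.97%. At least 1 of the 3 cores stood in 14 member windows (43.8%), against 13.3% of all windows and 22.2% of those of tested genes. A match of letters is a description and not a bound site. Below are stretches of 30 bases from 6 members, chosen so that each complex is seen with a core that lies before the RefSeq start site; capitals mark the core, and in Cox6a1 they mark 2 overlapping matches.
Ndufs3, ETS core 27 bases before the start, chr2:90904730-90904759, minus strand: cccgcgtccgcCCGGAAGaagagtcactgc
Ndufa6, NRF1 core 83 bases before the start, chr15:82354356-82354385, minus strand: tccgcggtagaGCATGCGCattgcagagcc
Sdhb, NRF1 core 54 bases before the start, chr4:140961206-140961235, plus strand: aagcccagtggGCATGCGCcctacgggccg
Sdhd, ETS core 46 bases before the start, chr9:50603877-50603906, minus strand: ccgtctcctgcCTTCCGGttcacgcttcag
Uqcrh, ETS core 10 bases before the start, chr4:116075071-116075100, minus strand: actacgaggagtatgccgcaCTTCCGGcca
Cox6a1, NRF1 core 162 bases before the start, chr5:115349102-115349131, minus strand: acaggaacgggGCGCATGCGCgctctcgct
In Ndufa6, Sdhb, Sdhd and Uqcrh the core reads on the opposite strand, so the capitals are its reverse complement.

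The libraries were of similar depth, with 9859449 to 10233706 counts in genes, and neuronal markers were present in each. Slc17a7, the vesicular glutamate transporter of cortical-type excitatory neurons, had 1183, 971 and 1108 CPM in CRS 1 to 3, and 718, 933 and 1083 CPM in Ctrl 1 to 3. The dissections differed in neighbouring tissue within both groups. Ttr, a choroid plexus gene, had 2.87, 5545 and 8.33 CPM in CRS 1 to 3, and 2125, 3772 and 18.9 CPM in Ctrl 1 to 3. Genes of the striatum and central amygdala summed to 272, 747 and 797 CPM in CRS 1 to 3, and to 1459, 774 and 934 CPM in Ctrl 1 to 3, over 12 markers of which all 12 were lower in CRS by the fitted change. In bulk tissue, fewer cells of a type and less RNA per cell cannot be told apart.

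No respiratory chain gene passed the test for a difference between CRS and Ctrl. Of the 40 members 0 passed an adjusted p of 0.05 in edgeR's quasi-likelihood test, as did 0 of 14739 tested genes (0%), and the adjusted p of the members ran from 0.997 to 0.998. At an unadjusted p under 0.05 there was 1 member, Ndufv1 (2.5% of members, higher in CRS), against 3.37% of all tested genes, 1.33% higher and 2.04% lower. The fitted log2 fold change of CRS over Ctrl was above 0 in 29 members (72.5%), against 48.4% of all tested genes, and below 0 in 11. The median over the 40 members was 0.04 on the log2 scale, against -0.0044 over all tested genes, with a range from -0.17 (Cox5a) to 0.16 (Ndufs3). Without Ctrl 3 the median was -0.0040, with 20 members above 0. Without the 3 libraries with high Ttr (CRS 2, Ctrl 1 and Ctrl 2) it was 0.14, with Ctrl 3 as the only Ctrl library left. Most markers of some other cell types had fold changes below 0, with 0 of them past the adjusted p in edgeR: 12 of 12 oligodendrocyte markers (median -0.38), 9 of 10 astrocyte markers (median -0.20) and 6 of 8 endothelial markers (median -0.17) were lower in CRS. Among neuronal lists, 8 of 12 neuron markers (median 0.07) and 6 of 9 markers of basolateral amygdala neurons (median 0.14) were higher in CRS. Slc17a7 and Camk2a are in both of these lists. Of the 12 neuron markers, 0 had all CRS libraries above all Ctrl libraries and 2 had all of them below, and the lowest fold change was -0.55. Of the parvalbumin interneuron markers 4 of 5 were lower (median -0.18), among them Tac1, which is also in the list of the striatum and central amygdala. All 10 choroid plexus markers (median -0.34) and 5 of 7 microglia markers (median -0.05) were lower too. The part of these cell types in the members' values was not tested. The CRS and Ctrl libraries did not overlap in 5 members, all higher in CRS (12.5%), against 8.28% of all tested genes, 3.8% higher and 4.48% lower. DESeq2 and limma-voom also called 0 members.

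The 95% intervals of the main fit were narrow for most members, and they cover only the spread between these libraries. The 95% interval of the fold change lay inside 1.5-fold in either direction for all 40 members (100%), against 69.8% of all tested genes. It lay inside 1.25-fold for 33 members (82.5%), against 40.5% of all tested genes. The members were not compared with other genes of like count. The median coefficient of variation over the 6 libraries was 6.03% among the members and 10.3% among all tested genes.

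**Figure D1:**
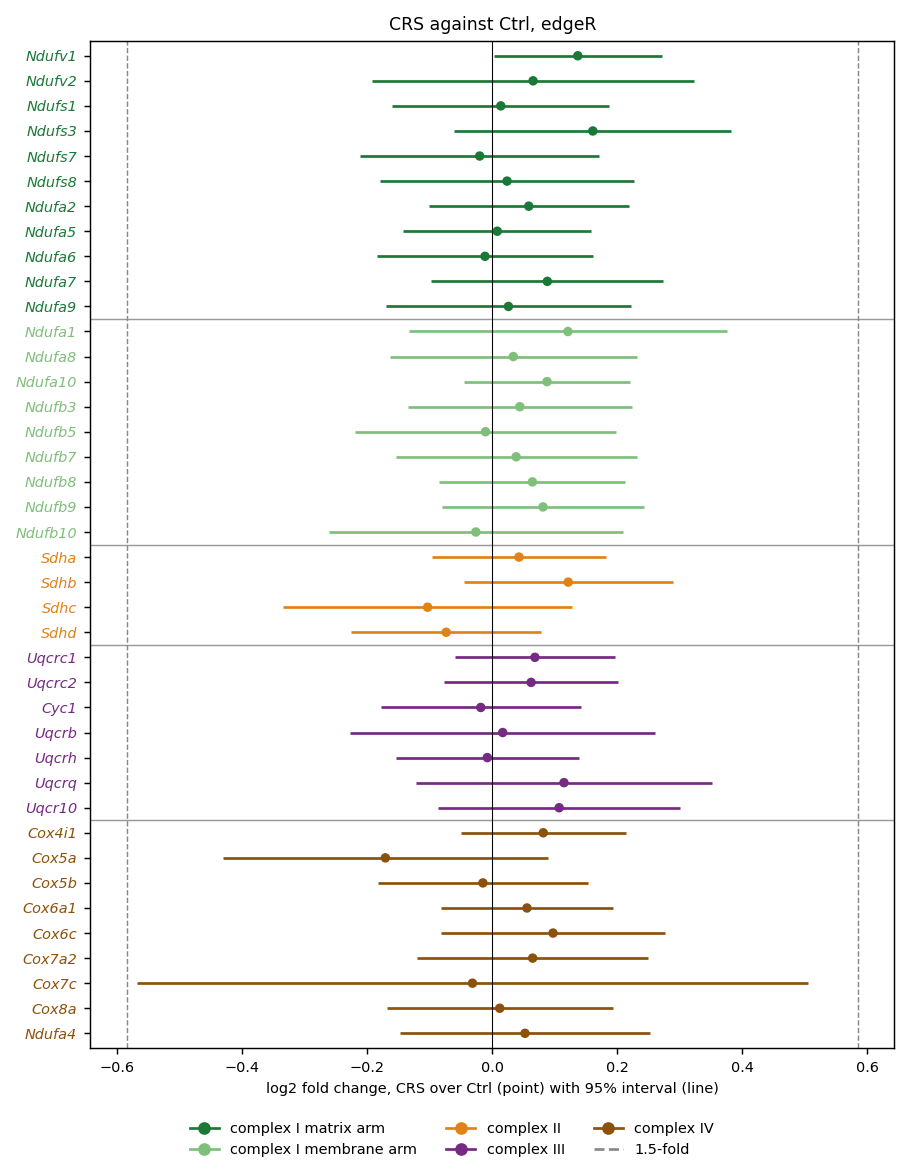
Fitted log2 fold change of CRS over Ctrl for each of the 40 members, grouped by complex, as a point with its 95% interval as a line; dashed lines mark 1.5-fold. Every interval lies between the dashed lines, Cox7c has the widest, and Ndufv1 alone lies wholly above 0.

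The matrix arm of complex I takes electrons from NADH and hands them along iron-sulfur clusters to ubiquinone. Its 11 members had 9 fold changes above 0 and 2 below, with a median of 0.03. Ndufv1, the subunit that binds NADH and flavin, had 134, 143 and 138 CPM in CRS 1 to 3, and 127, 128 and 122 CPM in Ctrl 1 to 3. All CRS libraries lay above all Ctrl libraries. Its log2 fold change was 0.14 ± 0.06 (SE, 95% interval 0.0025 to 0.27), or 1.10-fold, with an unadjusted p of 0.0467 and an adjusted p of 0.997 in edgeR. The unadjusted p was 0.111 without Ctrl 3 and 0.128 without CRS 2. Ndufs3, a core subunit near the quinone site, had 30.5, 30.0 and 29.6 CPM in CRS and 29.5, 27.3 and 23.7 CPM in Ctrl. Those groups were apart only because the highest Ctrl library lay just under the lowest CRS library. The log2 fold change was 0.16 ± 0.10 (-0.06 to 0.38, adjusted p = 0.997), and it was 0.08 without Ctrl 3.

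Other matrix arm genes overlapped between groups. Ndufa7, a supernumerary subunit, had 42.3, 44.3 and 41.7 CPM in CRS and 39.5, 43.7 and 37.5 CPM in Ctrl. Ndufs1, the largest iron-sulfur subunit, had 154, 159 and 153 CPM in CRS and 162, 161 and 138 CPM in Ctrl. The group means of Ndufs1 were 155 ± 3.52 CPM in CRS and 154 ± 13.3 CPM in Ctrl (SD, n = 3 each), and the wider spread in Ctrl came with a low Ctrl 3. Ndufa5, another supernumerary subunit, was the steadiest member of all: its lowest library was CRS 2 at 39.5 CPM and its highest CRS 3 at 41.0 CPM, a coefficient of variation of 1.34%. The remaining matrix arm members, Ndufv2, Ndufs7, Ndufs8, Ndufa2, Ndufa6 and Ndufa9, had log2 fold changes from -0.02 (Ndufs7) to 0.07 (Ndufv2). Ndufs7 and Ndufs8 carry the last iron-sulfur clusters before ubiquinone. By type, the 6 core subunits had a median of 0.04 and the 14 supernumerary subunits of both arms 0.04.

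The membrane arm of complex I pumps protons, and its nuclear subunits are all supernumerary. Of 9 members, 7 had fold changes above 0 and 2 below, with a median of 0.04. Ndufa10, a subunit related to nucleoside kinases, had 109.8, 109.9 and 111 CPM in CRS and 107, 103 and 100.3 CPM in Ctrl. All CRS libraries lay above all Ctrl libraries, with a log2 fold change of 0.09 ± 0.06 (-0.05 to 0.22, adjusted p = 0.997). Ndufb9, a subunit of the LYR motif family, had 118, 109.6 and 114 CPM in CRS and 107, 115 and 101 CPM in Ctrl. Ndufa1, a small subunit with a single membrane span encoded on the X chromosome, had 29.8, 35.9 and 31.3 CPM in CRS and 31.3, 32.0 and 26.0 CPM in Ctrl. Both genes overlapped between groups. Ndufa8, Ndufb3, Ndufb5, Ndufb7, Ndufb8 and Ndufb10 had fold changes from -0.03 (Ndufb10) to 0.06 (Ndufb8), and all of these groups overlapped.

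Complex II, succinate dehydrogenase, links the tricarboxylic acid cycle to the chain and is built wholly from nuclear genes. Its 4 subunits were split, with 2 fold changes above 0 and 2 below, a median of -0.02. Sdha, the flavin-bearing catalytic subunit, had 325, 304 and 304 CPM in CRS and 295, 310.0 and 299.9 CPM in Ctrl. Sdhb, the iron-sulfur subunit, had 96.8, 94.7 and 104 CPM in CRS and 96.5, 90.3 and 84.4 CPM in Ctrl. Both overlapped, and the catalytic pair stood at 0.04 ± 0.06 and 0.12 ± 0.07 on the log2 scale. The membrane anchors lay on the other side of 0. Sdhc had 48.4, 62.4 and 56.7 CPM in CRS and 59.1, 63.7 and 57.1 CPM in Ctrl, with a log2 fold change of -0.10 ± 0.10. Sdhd had 62.1, 66.7 and 68.6 CPM in CRS and 71.3, 68.5 and 68.1 CPM in Ctrl, with -0.07 ± 0.07. CRS 1 was the lowest of the 6 libraries for both anchors, and each group pair overlapped.

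Complex III moves electrons from ubiquinol to cytochrome c. Of its 7 members, 5 had fold changes above 0 and 2 below, with a median of 0.06. Uqcrc1, a core protein on the matrix side, had 164, 159 and 158 CPM in CRS and 152, 156 and 151 CPM in Ctrl. The groups did not overlap, with a log2 fold change of 0.07 ± 0.06 (-0.06 to 0.20, adjusted p = 0.997). Its partner Uqcrc2 had 187, 191 and 186 CPM in CRS and 183, 186 and 171 CPM in Ctrl, and overlapped narrowly. The small subunits Uqcr10 and Uqcrq were more spread. Uqcr10 had 60.9, 62.6 and 55.2 CPM in CRS and 58.2, 57.4 and 50.3 CPM in Ctrl. Uqcrq had 32.9, 26.9 and 32.0 CPM in CRS and 26.3, 28.4 and 30.1 CPM in Ctrl, with its lowest library Ctrl 1. Cyc1, which carries the haem that reduces cytochrome c, stood at -0.02 ± 0.07, the hinge subunit Uqcrh at -0.01 ± 0.06 and Uqcrb at 0.02 ± 0.11.

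Complex IV, cytochrome c oxidase, reduces oxygen to water. Ndufa4 was named as a complex I gene and is now placed with complex IV, where it is counted here. Of 9 members, 6 had fold changes above 0 and 3 below, with a median of 0.05. Cox4i1, the regulatory subunit whose isoform is the common form outside the lung, had 292, 296 and 299.7 CPM in CRS and 282, 286 and 271 CPM in Ctrl. The groups did not overlap, at 0.08 ± 0.06 on the log2 scale (-0.05 to 0.21, adjusted p = 0.997). Cox5a, a subunit facing the matrix, had 58.1, 53.4 and 69.5 CPM in CRS and 74.3, 68.2 and 61.3 CPM in Ctrl. It had the lowest fold change of the 40 members, -0.17 ± 0.11 (-0.43 to 0.09), and its groups overlapped, CRS 1 and CRS 2 being the low libraries. This value was -0.29 without CRS 3, -0.08 without CRS 2 and -0.10 without Ctrl 1, so single libraries moved it by more than 1.5 times. Without the 3 libraries with high Ttr (CRS 2, Ctrl 1 and Ctrl 2) it was 0.060, with Ctrl 3 as the only Ctrl library left. Cox6c, a small membrane subunit, had 123, 113 and 114 CPM in CRS and 114, 114 and 98.6 CPM in Ctrl, an overlap with Ctrl 3 low. Cox5b, Cox6a1, Cox7a2, Cox8a and Ndufa4 had fold changes from -0.01 (Cox5b) to 0.06 (Cox7a2), all with overlapping groups.

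Cox7c stood apart from the rest of its complex by a low count. It had 24, 29 and 27 counts in CRS 1 to 3, and 32, 30 and 21 in Ctrl 1 to 3, against mean counts of at least 284 for every other member. Its 95% interval, -0.57 to 0.50, was the widest of the 40. The counting set aside reads with several alignments, which near-identical gene copies can produce. Windows of 100 bases, the read length, were therefore compared between each member's longest protein-coding transcript and the transcripts of other genes in GENCODE M21. Of the members 32 shared no window, and 8 shared some: Cox7c 19.7%, Ndufs3 19.9%, Ndufb9 17.0%, Uqcrb 15.8%, Cox5b 8.09%, Cox6c 7.20%, Ndufb8 1.71% and Cox6a1 1.48%. Ndufs3 and Ndufb9, with shares near that of Cox7c, had mean counts of 284 and 1108. These shares count exact matches between annotated transcripts and do not measure the reads set aside in these libraries. The cause of the low count of Cox7c was not tested. Copies outside that annotation were not analysed here, and the level of Cox7c is uncertain.

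**Figure D2:**
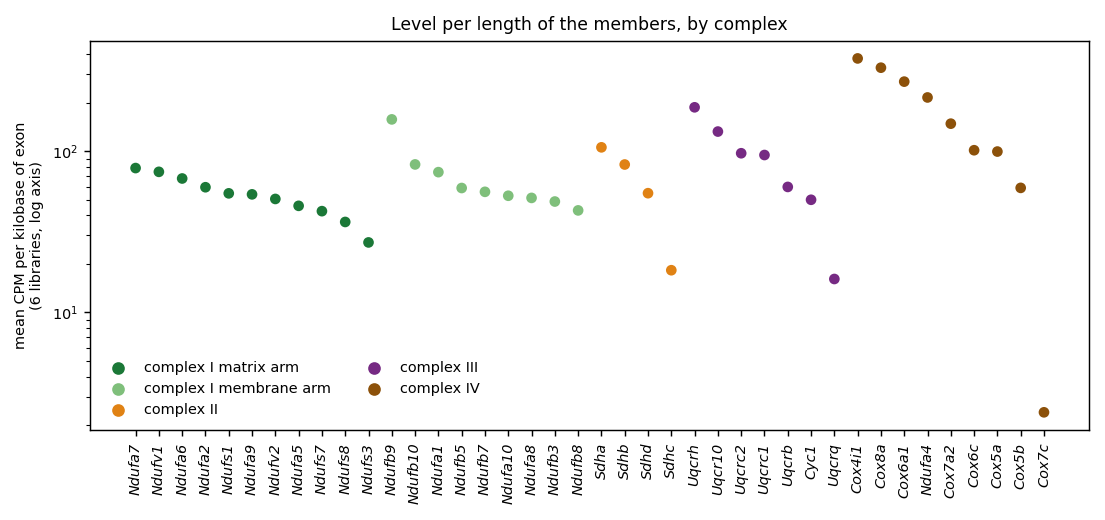
Mean CPM per kilobase of exon over the 6 libraries for each member, on a log axis, ordered by level within each complex. Complex IV holds the 4 members above 200 CPM per kilobase, Cox4i1, Cox8a, Cox6a1 and Ndufa4, and also the lowest member, Cox7c.

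Levels set per exon length (GENCODE M21, build GRCm38, used only for lengths) differed between complexes. The median was 148 CPM per kilobase in complex IV, 94.7 in complex III, 68.8 in complex II and 54.4 in complex I. Cox4i1 was highest at 376 CPM per kilobase, followed by Cox8a at 329.5, Cox6a1 at 270.0 and Ndufa4 at 215. Complex I ran from 27.2 (Ndufs3) to 157 (Ndufb9) CPM per kilobase over its 20 members. In complex III, Uqcrh reached 187 CPM per kilobase and Uqcrq 16.1. In complex II, Sdha stood at 106 and Sdhc at 18.3 CPM per kilobase. Uqcrq and Sdhc have annotated exon lengths of 1827 and 3171 bases, so their levels per length depend on how much of that length is transcribed here.

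Isoforms of complex IV known from heart, skeletal muscle, lung or testis were present at few counts. Cox6a2, the muscle counterpart of Cox6a1, had 3.59, 2.21 and 3.07 CPM in CRS and 2.48, 2.52 and 1.73 CPM in Ctrl. Cox7a1, the muscle counterpart of Cox7a2, had 6, 11 and 4 counts in CRS and 15, 13 and 10 in Ctrl, with a log2 fold change of -0.82 ± 0.43 (adjusted p = 0.997). Cox8b, named after its values were seen, had 1, 31 and 1 counts in CRS 1 to 3, and 11, 12 and 0 in Ctrl 1 to 3. CRS 2, Ctrl 1 and Ctrl 2, its higher libraries, are also those with high Ttr; the part of choroid plexus tissue in this value was not tested. Of 7 isoforms in the files 4 had counts enough for the test, and 0 of these passed.

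**Figure D3:**
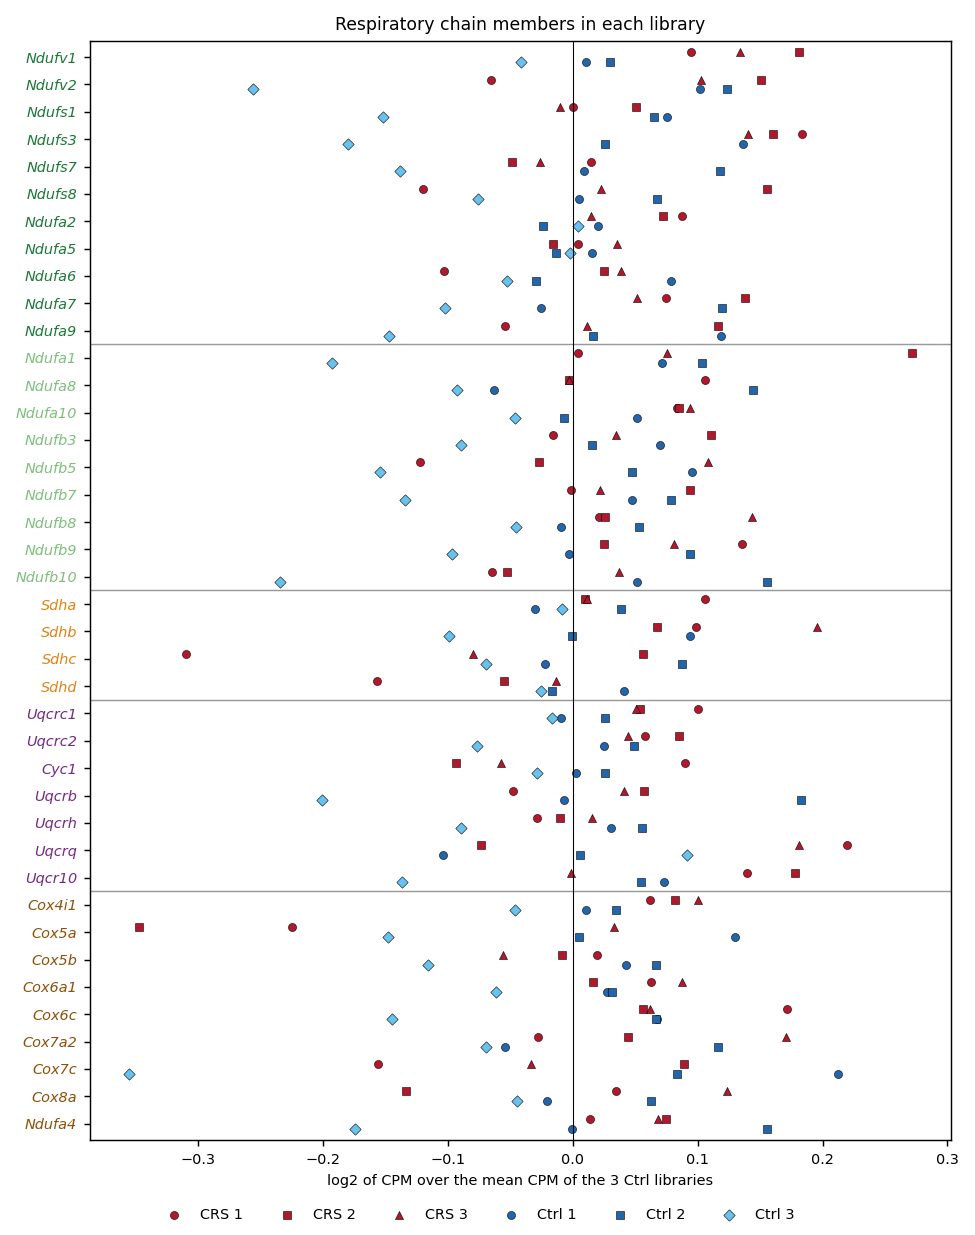
Each member in each library, as the log2 of its CPM over the mean CPM of the 3 Ctrl libraries; red symbols are CRS libraries, blue symbols Ctrl libraries, and the pale diamond is Ctrl 3. Ctrl 3 is the lowest point of the row in 29 of the 40 members.

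For most members 1 control library, Ctrl 3, was the low one. It was the lowest of the 6 libraries for 29 of 40 members (72.5%), against 16.5% of all tested genes, and the lowest of the Ctrl libraries for 36 (90%), against 39.5%. Summed over the 40 members, the level was 3621, 3633 and 3690 CPM in CRS 1 to 3, and 3597, 3674 and 3340 CPM in Ctrl 1 to 3. By group the sum was 3648 ± 36.8 CPM in CRS and 3537 ± 175 CPM in Ctrl (SD, n = 3 each). CRS 1 and CRS 2 lay between Ctrl 1 and Ctrl 2, CRS 3 lay above them, and Ctrl 3 lay below all other libraries. With other scalings of the counts, 25 to 29 members were higher in CRS.

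The sum was lowest in Ctrl 3 for every complex. The summed level of complex I was 1331, 1385 and 1374 CPM in CRS, and 1357, 1371 and 1218 CPM in Ctrl. Complex II summed to 532, 528 and 533 CPM in CRS, and 522, 532 and 510 CPM in Ctrl. Complex III summed to 658, 646 and 641 CPM in CRS, and 632, 648 and 601 CPM in Ctrl. Complex IV summed to 1100, 1075 and 1141 CPM in CRS, and 1086, 1122 and 1011 CPM in Ctrl. Ctrl 3 was lowest in 16 of 20 members of complex I, 1 of 4 of complex II, 5 of 7 of complex III and 7 of 9 of complex IV. All 9 membrane arm members of complex I had it lowest. Ctrl 3 did not stand apart in depth, with 9870139 counts in genes, nor in the share of reads assigned to no gene, 54.8% against 53.0 to 57.4% over all libraries. Neuronal markers were not low in it: their mean log2 level relative to the Ctrl mean was -0.09, -0.06 and 0.07 in CRS 1 to 3, and -0.05, -0.02 and 0.07 in Ctrl 1 to 3, over 12 markers. Oligodendrocyte markers on the same scale were -0.61, -0.09 and -0.42 in CRS 1 to 3, and 0.41, -0.13 and -0.28 in Ctrl 1 to 3. Ctrl 3 did stand apart from the other Ctrl libraries in choroid plexus markers, which on this scale were -4.27, 2.19 and -3.79 in CRS 1 to 3, and 1.09, 1.88 and -2.98 in Ctrl 1 to 3, over 10 markers. CRS 1 and CRS 3 were lower still in these markers. What set the respiratory chain level of Ctrl 3 was not tested.

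**Figure D4:**
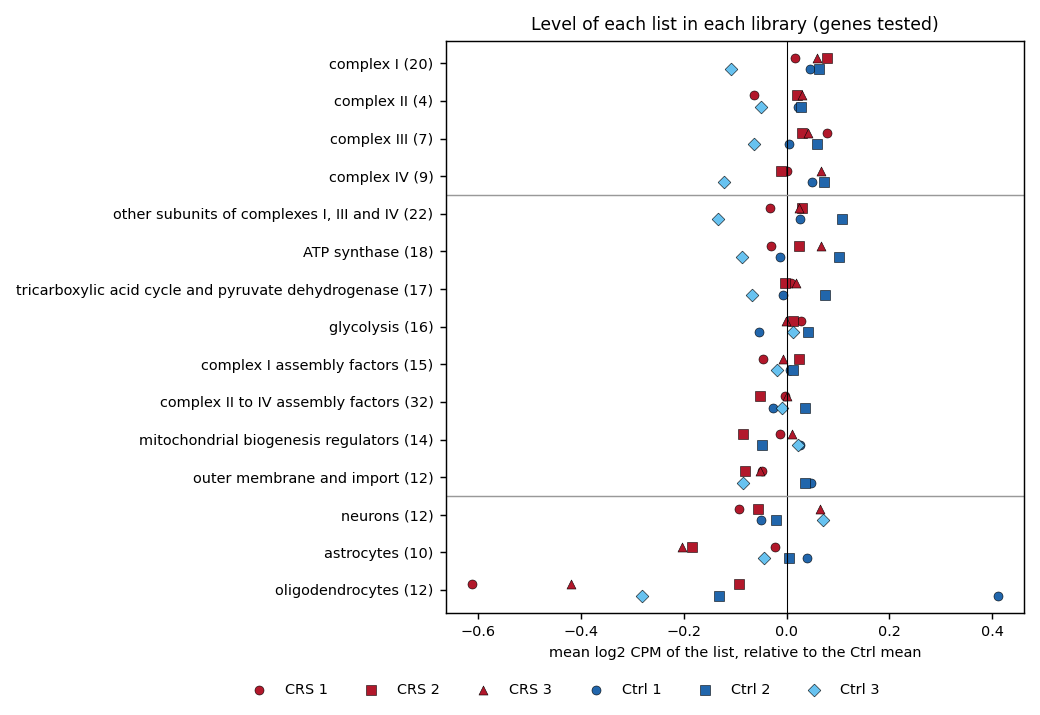
Mean log2 CPM of each list relative to its Ctrl mean, 1 point per library, with the number of tested genes in brackets; the upper block holds the members, the middle block related lists and the lower block cell type markers. Ctrl 3 (pale diamond) is lowest for complexes I, III and IV, the other subunits, ATP synthase, the tricarboxylic acid cycle and outer membrane and import genes, and not for the other lists drawn.

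Related mitochondrial genes gave 0 calls in either direction in edgeR, list by list. Of 22 tested subunits of complexes I, III and IV that are not members, 10 had fold changes above 0 and 12 below, a median of -0.02, and Ctrl 3 was lowest in 15. Uqcr11, a small complex III subunit, had 67.2, 64.8 and 57.9 CPM in CRS and 52.6, 59.1 and 49.7 CPM in Ctrl. It had the largest fold change of that list, 0.23 ± 0.09 (0.03 to 0.44, unadjusted p = 0.0315, adjusted p = 0.997), with overlapping groups. Ndufa11, a supernumerary subunit of complex I, stood at 0.13 ± 0.08. Of 18 ATP synthase genes 11 were above 0 and 7 below, with a median of 0.03 and Ctrl 3 lowest in 13; Atp5b, the catalytic beta subunit, stood at 0.04 ± 0.07, Atp5mpl at 0.12 ± 0.09 and Atp5d at -0.08 ± 0.08.

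Assembly factors build the complexes and are not part of them. Ctrl 3 was lowest in 4 of 15 factors of complex I and 4 of 32 factors of complexes II to IV. Fold changes were above 0 in 9 of the 15 (median 0.00, with Ndufaf6 at -0.22 ± 0.16, Tmem186 at -0.12 ± 0.09 and Acad9 at -0.06 ± 0.07). They were above 0 in 14 of the 32 (median -0.02, with Coa4 at 0.49 ± 0.30, Cox15, an enzyme of haem a synthesis, at -0.12 ± 0.08 and the RNA-binding protein gene Lrpprc at -0.02 ± 0.07). Ctrl 3 was lowest in 9 of 17 genes of the tricarboxylic acid cycle and pyruvate dehydrogenase and in 2 of 16 glycolysis genes. Of the cycle and dehydrogenase genes 11 of 17 were above 0 (median 0.01), with Pdhx at -0.14 ± 0.07 and Mdh2 at 0.11 ± 0.07. All CRS libraries lay below all Ctrl libraries for Pdhx, 1 of the 17, and Cox15, 1 of the 32. Among the 15 factors of complex I they lay below for 1, Tmem186, and above for 1. Of all tested genes 4.48% were apart in this way with CRS lower and 3.8% with CRS higher. Among glycolysis genes 10 of 16 were above 0 (median 0.02), with hexokinase Hk1 at 0.11 ± 0.10, the neuronal enolase Eno2 at -0.08 ± 0.07 and Aldoa at 0.06 ± 0.08.

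Regulators of mitochondrial biogenesis were split, 7 of 14 above 0, with a median of -0.02 and Ctrl 3 lowest in 2. Gabpa, the DNA-binding subunit of GABP, stood at -0.15 ± 0.11, the mitochondrial methyltransferase gene Tfb1m at -0.15 ± 0.15 and Yy1 at 0.04 ± 0.07. Of 12 outer membrane and import genes 4 were above 0 and 8 below, with a median of -0.06 and Ctrl 3 lowest in 3. The import receptor gene Tomm70a had 264, 308 and 334 CPM in CRS and 396, 342 and 326 CPM in Ctrl, at -0.23 ± 0.11 (adjusted p = 0.997), and its groups overlapped. The co-chaperonin gene Hspe1 stood at -0.20 ± 0.11 and Tomm20 at -0.02 ± 0.06. Protein-coding genes of mitochondrial DNA were looked for under 26 symbols, and 0 of these were among the symbols counted. Genes of mitochondrial DNA were therefore not analysed here.

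Outside these lists, the 5 genes whose log2 CPM followed the mean of the 40 members most closely, among 8010 genes with a mean of at least 20 CPM, were Gng10, Gm12338, Cacybp, Puf60 and Pgrmc2. The likeness is over 6 libraries only and describes those libraries, among them the low Ctrl 3. Their own log2 fold changes ran from 0.03 (Puf60 and Pgrmc2) to 0.08 (Gng10 and Gm12338).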

How the data were processed

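Total RNA of 6 libraries was sequenced as single-end reads. Per the submitters' processing notes, the tools were edgeR 3.42.4, HTSeq 0.13.5, STAR 2.7.7a and FastQC 0.12.1, on the build mm39. What each tool did, which annotation was counted and whether strand was used are not given. For each library the authors deposited a table of raw, unnormalized counts by symbol. Rows for reads without a gene (53.0 to 57.4% of reads), with several alignments (6.97 to 8.16%) or ambiguous (0.162 to 0.194%) were left out.

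The fit used edgeR 4.0.16 under R 4.3.3: filterByExpr (minimum count 10, minimum total 15) kept 14739 genes, TMM factors ran from 0.983 to 1.02, and the robust quasi-likelihood F test (non-legacy) compared CRS with Ctrl, at an adjusted p of 0.05 (Benjamini-Hochberg, whole table). Each SE was obtained by dividing the size of the log2 fold change by the root of F. Lists were summarised by averaging log2 CPM (prior count 2). The fit was tested on simulated counts. DESeq2 1.42.0, limma 3.58.1, other scalings, no filter, a replicate block and left-out libraries were alternatives. Labels do not say that libraries come from separate animals beyond the word replicate, so p-values measure the spread between libraries.

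Members and lists were chosen with earlier results of these data known. Named members were, per complex (with 2 arms for complex I), the 3 with the smallest p and those with the highest and lowest mean CPM, and all of complex II; of each related list, the 2 with the smallest p and the highest in mean CPM. Some genes that this rule names are not reported here. No member had counts identical to another gene's in every library.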

Additional observations from a re-analysis of the deposited data

How the results depend on the processing

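Respiratory chain members called were 0 under every alternative run. Genes called over the whole table, 0 in the main test (496 at an unadjusted p under 0.05), were 2 with DESeq2 and 0 to 1 when each library was left out in turn (1 without Ctrl 3); the cause was not tested. The number of members higher in CRS, 29, a count added after seeing the data, ran from 20 (without Ctrl 3) to 36 (without Ctrl 2) on leaving out single libraries, was 25 with library size alone and 38 without the 3 libraries with high Ttr, where Ctrl 3 was the only Ctrl library. Without those 3 libraries the medians were 0.14 for the 40 members, 0.15 for complex I, 0.11 for complex III and 0.14 for complex IV. On leaving out single libraries the median of the 40 members ran from -0.0040 to 0.08. With Ndufa4 counted in complex I, the medians were 0.04 for complex I and 0.03 for complex IV.

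Among 43 named genes under 15 alternatives each, none was called, and 19 values changed sign. With library size alone it was Ndufs1 (-0.0041). Without Ctrl 1 and CRS 1 they were Cox7c (0.14), Hk1 (-0.037), Sdha (-0.0046) and Tomm20 (0.014). Without the 3 libraries with high Ttr they were Cox5a (0.060), Cox7c (0.26), Gabpa (0.030), Lrpprc (0.069), Tomm20 (0.030) and Yy1 (-0.043). On leaving out single libraries, values ranged from -0.016 to 0.088 for Atp5b, -0.18 to 0.088 for Cox7c, -0.062 to 0.038 for Lrpprc, -0.056 to 0.056 for Ndufs1 and -0.034 to 0.026 for Tomm20.

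Deviations from the group means correlated across genes at -0.32, 0.53 and 0.28 for the same-numbered libraries 1, 2 and 3. CRS 2 went best with Ctrl 2 and CRS 3 with Ctrl 3, while CRS 1 went best with Ctrl 3 (0.48). These values cannot settle whether replicate numbers pair libraries, since deviations within a group of 3 sum to 0. With the replicate block, 0 genes and 0 members were called and the median of the members was 0.04. Cox7c, at 27.2 counts on average, had the widest interval of the members; the cause of its low count was not tested.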
